A study of Homo sapiens with 6 samples.

Results

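The SR splicing factor genes SRSF1, SRSF2, SRSF3, SRSF4, SRSF5, SRSF6, SRSF7, SRSF11, TRA2A and TRA2B were examined isoform by isoform in cells expressing a catalytic-site mutant of DIS3L2. The genes were taken because each makes, besides its coding mRNA, transcripts that end in a poison exon or keep an intron, and all of their transcripts in the deposited table were used. They were 10 of 63190 genes, with 113 of 207167 transcripts. By GENCODE biotype, 37 of the 113 transcripts were protein coding, 22 were annotated as targets of nonsense-mediated decay (NMD), 35 as retained intron and 16 as transcripts without a defined coding sequence (CDS not defined), and 3 had no biotype.

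SR proteins bind exons through RNA recognition motifs and recruit the splicing machinery through domains rich in arginine and serine. Their own genes hold deeply conserved stretches in which an alternative exon or a retained intron brings a stop codon ahead of an exon junction, so that ribosomes stop early and the mRNA is marked for NMD. Several SR proteins promote this splicing of their own transcripts, which lowers the amount of coding mRNA when the protein is plentiful. DIS3L2 is a 3′ to 5′ exonuclease that degrades RNAs carrying oligo(U) tails.

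RNA-seq was done on 3 libraries from D391N cells and 3 libraries from control cells. Both are HEK293T-Rex FlipIn cells, a human embryonic kidney line (HEK293 in the labels) that carries the tetracycline repressor. The D391N cells hold a stably integrated DIS3L2 construct with the D391N substitution, which doxycycline switches on. The methods of the study give 24 h of doxycycline for induction and do not say whether the control cells received it. Each condition is 1 cell line, so that an effect of the construct and an effect of the line cannot be told apart, and no label says that replicates were separate cultures, so p-values measure only the spread between these libraries. Below, 3 values joined in a sentence are replicates 1, 2 and 3 in that order. All levels are RPKM, that is reads per kilobase of transcript and library size, and fold changes are D391N minus control on the scale log2(RPKM + 0.1), which understates the change of low transcripts.

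The premature stops of the members have different architectures, and the sequences that lead into them are shown for some of the NMD transcripts, not always the most abundant. In 11 of the 22 NMD transcripts the exon with the stop codon overlapped no exon of a coding transcript of the same gene, which is called a poison exon here. In 7 the exon overlapped a coding exon in part, and in 4 it was shared whole with a coding model. In 22 of 22 the stop codon lay more than 50 nt ahead of the last exon junction, at distances of 57 to 1138 nt. Each line gives, 5′ to 3′, the last 27 coding bases and the stop codon, which is in capitals, read by transcript from the GENCODE v44 sequences mapped to GRCh37.
SRSF3-203: accatcatgtctcttctcaccaccctcTGA
SRSF6-202: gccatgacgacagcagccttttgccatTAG
SRSF7-204: aggtttcttcgtttgagtcagtcgcctTGA
SRSF11-212: gttgttcataaaacagcttttgaaagtTGA
TRA2B-205: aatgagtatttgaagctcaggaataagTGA
TRA2A-211: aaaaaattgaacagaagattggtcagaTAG
SRSF5-211: atgacgaggagtgcctgtgggttatccTAA
The SRSF3-203 stop lies in exon 4, a 456-nt exon at chr6:36567598-36568053 (+ strand, GRCh37). The stop of SRSF3-204, whose sequence is not shown, lies instead in exon 3, a 98-nt exon. SRSF6-202 stops in a 268-nt exon at chr20:42087793-42088060 (+ strand), SRSF7-204 in a 449-nt exon at chr2:38976040-38976488 (- strand) and SRSF11-212 in a 117-nt exon at chr1:70697542-70697658 (+ strand). TRA2B-205 stops in exon 2, which is 276 nt long and lies at chr3:185649365-185649640 (- strand). The TRA2A-211 stop is also in exon 2, a 301-nt exon at chr7:23561751-23562051 (- strand), but a coding model of TRA2A holds that same exon. SRSF5-211 has no poison exon of this kind: its stop lies in a 1030-nt exon 6 at chr14:70236228-70237257 (+ strand) that extends a coding exon.

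The construct was seen in every D391N library, with DIS3L2 summed over its transcripts at 369, 467 and 512 RPKM, against 11.8, 12.9 and 14.6 RPKM in the controls (log2 fold change 5.08 ± 0.18 SE, limma adjusted p = 0.000268). Relative to the deepest library, control replicate 2, depth ranged from 0.615 to 0.802 in the D391N libraries and from 0.671 to 1 in the controls. Of the embryonic kidney line markers, 5 of 6 reached a mean of 1 RPKM, with NEFM below it, and the list summed to 179 to 234 RPKM in D391N and 240 to 295 RPKM in control libraries. Of 8 markers of other cells, 2 reached it (DCN and PTPRC), and PECAM1 had no value. Without PECAM1 that list summed to 6.62 to 10.3 RPKM in D391N and 4.78 to 5.97 RPKM in control libraries. The part of this difference in the results below was not tested.

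Among the 86 member transcripts that averaged 1 RPKM or more over the libraries, and so were tested, the control libraries resembled each other more than the D391N libraries did. Pearson correlations of the log2 levels, across transcripts of the same genes, were 0.908 to 0.942 between controls and 0.554 to 0.812 between D391N libraries. D391N replicate 1 was nearer to the controls, at 0.835 to 0.889, than to D391N replicate 2, at 0.554. Its RPKM summed over all transcripts, 1.20e+06, was also near that of the controls (1.21e+06 to 1.29e+06). Those of D391N replicates 2 and 3 were 741119 and 890783, and the main fits apply no scaling between libraries. For 40 of the 86 transcripts, D391N replicates 2 and 3 both lay outside the range of the controls on the same side, and replicate 1 lay on that side too for 15 of them and within the control range for 13. Results that rest on replicate 1 are therefore given with and without it. Replicate 1 was singled out from these same values, and leaving out the D391N library nearest the controls favours larger differences. Over all transcripts, the number past an adjusted p of 0.05 went from 33 to 4961 without it. Adjusted p-values without replicate 1 are therefore descriptive.

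How far reads can tell the isoforms apart differed between members. Cut into windows of 50 bases, the length of the reads, a member transcript had a median of 6.97% of windows found in no other transcript of its gene, and 32 of 110 had none. Sequence shared with other genes was widest in SRSF1. Every window of the SRSF1 NMD transcript SRSF1-204 also lies in a transcript of ENSG00000266086, an unnamed gene, and in the 9 SRSF1 transcripts 29.3% to 100% of windows occurred in another gene. In SRSF6-202 the share was 16.8%, from a processed pseudogene, and elsewhere it was at most 6.37%. Reads estimated from the posterior variance stayed under 3 throughout for 19 of the 113 transcripts, and 47 of the 86 tested had 10 or more in each library. That variance also holds the uncertainty of sharing reads among isoforms. The reads given below are therefore equivalents implied by the variance, not counts of mapped reads, and can be few without low depth.

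Summed over all transcripts, the 10 genes lay on both sides of the comparison, 6 higher and 4 lower in D391N on average. No gene sum passed the adjusted threshold of 0.05 by limma with Benjamini-Hochberg adjustment (0 of 10, against 0.14% of all 20714 gene sums), and 1 of 10, TRA2A, had an unadjusted p under 0.05, against 22.7% of all (6.76% for higher in D391N). In these bulk libraries, a change in the share of cells and a change in RNA per cell cannot be told apart. SRSF3, the smallest SR protein and an adaptor for mRNA export, was at 411, 375 and 463 RPKM in D391N and 601, 588 and 498 RPKM in control libraries. Every D391N library was below every control, with a log2 fold change of -0.43 ± 0.20 SE and an adjusted p of 0.245. TRA2A and TRA2B, the SR-like homologues of fly Transformer-2 that bind purine-rich exonic enhancers, lay on the other side. TRA2A was at 67.9, 97.8 and 106 RPKM in D391N and 58.6, 62.4 and 61.7 RPKM in controls (log2 fold change 0.55 ± 0.20 SE, adjusted p = 0.178). TRA2B was at 186, 197 and 232 RPKM against 173, 162 and 125 RPKM (0.43 ± 0.19 SE, adjusted p = 0.240). The conditions did not overlap for these 3 genes, 2 higher in D391N (background 10.5%) and 1 lower (background 20.7%). They overlapped for SRSF1, SRSF2, SRSF4, SRSF5, SRSF6, SRSF7 and SRSF11, whose log2 fold changes ran from -0.23 (SRSF2) to 0.48 (SRSF4). Quantile normalization moved the SRSF3 difference to 0.015, and median centring moved all gene sums up by 0.22, so the lower SRSF3 sum depends on the scaling. SRSF1 and SRSF7 changed from lower to higher under median centring, and SRSF1 also under quantile normalization.

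Divided by biotype, the coding sum was higher in D391N on average for 8 of 10 genes, with a median log2 fold change of 0.45, against 4761 of 11351 genes and a median of -0.096 over all coding sums tested. Quantile normalization put the coding sums of SRSF1 and TRA2B below 0 and median centring put that of SRSF5 above it. The NMD sum was higher for 5 of 10, with a median of 0.010 (all genes 0.028), and it changed sign for SRSF6 under quantile normalization and for SRSF7 under median centring. The retained-intron sum was lower for 6 of the 9 genes that have one, with a median of -0.24 (all genes -0.021). Of the 29 sums, 0 passed the adjusted threshold (background 0.768%) and 4 had an unadjusted p under 0.05 (background 23.2%), 2 higher (background 8.28%) and 2 lower (background 14.9%). Only the coding sum of SRSF6 lay above all controls in every D391N library (background 11.1%), and 3 sums lay below all controls, namely SRSF3 NMD, SRSF2 retained intron and TRA2A retained intron (background 19.7%). These shares were at or below those of all sums. Without D391N replicate 1, 4 of the 29 passed (background 12.6%), namely SRSF5 NMD and SRSF11 coding (higher) and SRSF3 NMD and SRSF2 retained intron (lower).

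**Figure D1:**
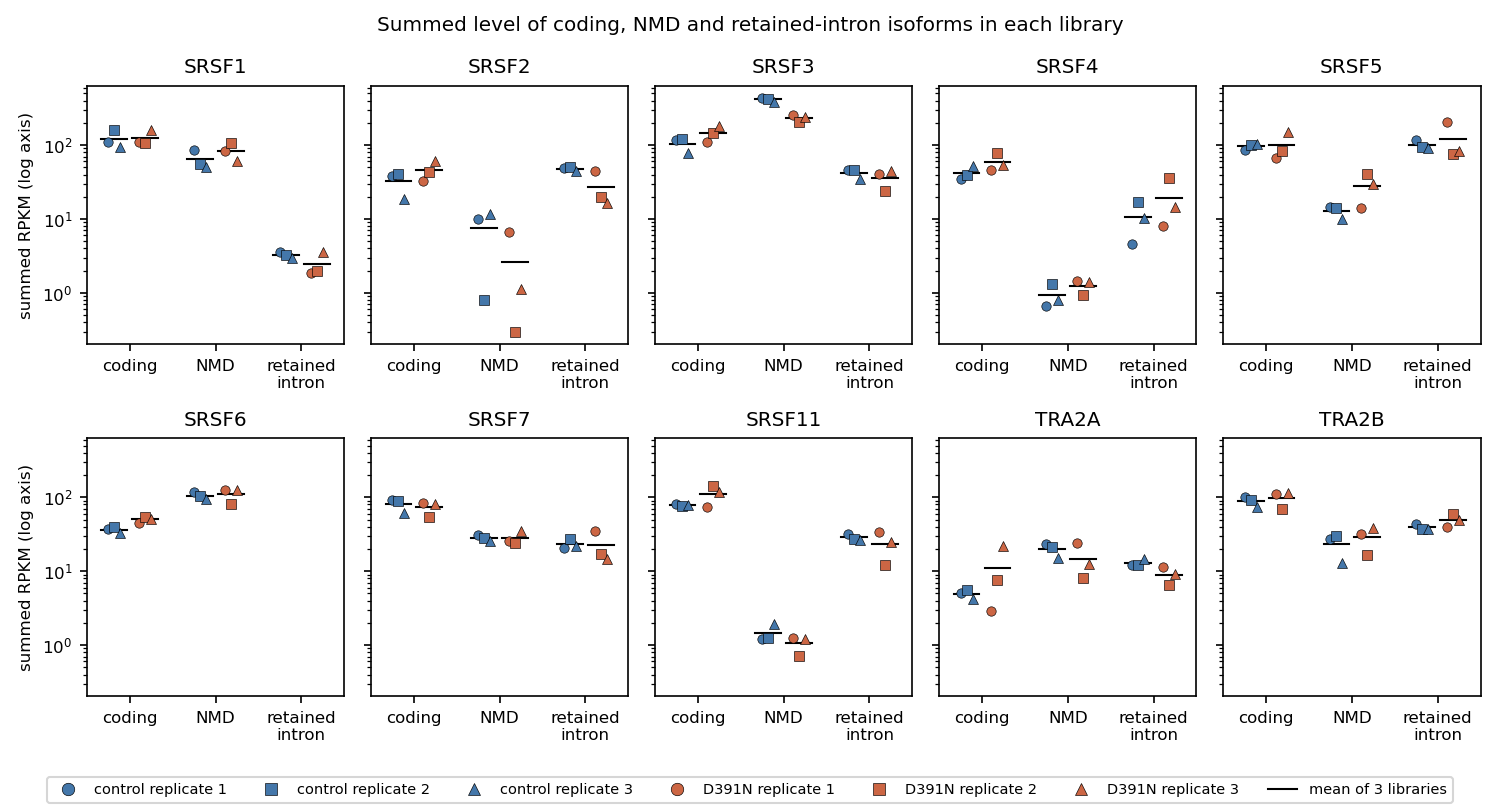
Summed RPKM (log axis) of coding, NMD and retained-intron transcripts of each gene. Points are libraries, marked by condition and replicate, and black lines are means of 3 libraries. SRSF3 is the gene with the highest NMD sum, at 386 to 437 RPKM in the controls and 206 to 259 RPKM in the D391N libraries, and SRSF6 has no retained-intron transcript.

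The balance within each gene was measured as the share of NMD and retained-intron RPKM among coding, NMD and retained-intron RPKM. Transcripts without a defined coding sequence are left out of it. In SRSF11 these averaged 237 of 372 RPKM in D391N and 249 of 357 RPKM in controls. Pooled over the 10 genes, the share stood at 59.3%, 48.5% and 44.7% in D391N and 60.6%, 56.6% and 59.8% in control libraries, with means of 50.8% ± 7.60 and 59.0% ± 2.08 (SD, n = 3). D391N replicate 1 lay within the control range and the other D391N libraries below it. Tested within genes as the log2 ratio of noncoding to coding levels, 0 of 10 members passed the adjusted threshold (background 0.0336%) and 2 had an unadjusted p under 0.05 (background 16%). These were SRSF3 and SRSF2, both lower (background 6.09%), and 0 were higher (background 9.93%). Without D391N replicate 1, SRSF3, SRSF2 and TRA2A passed the adjusted threshold (3 of 10, background 6.31%). The members were split 5 higher and 5 lower, with a median of -0.15 against 0.094 over all 5959 genes tested, and SRSF7 changed sign under quantile normalization. SRSF3 was the one gene whose conditions did not overlap (lower, background 9.13%).

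**Figure D2:**
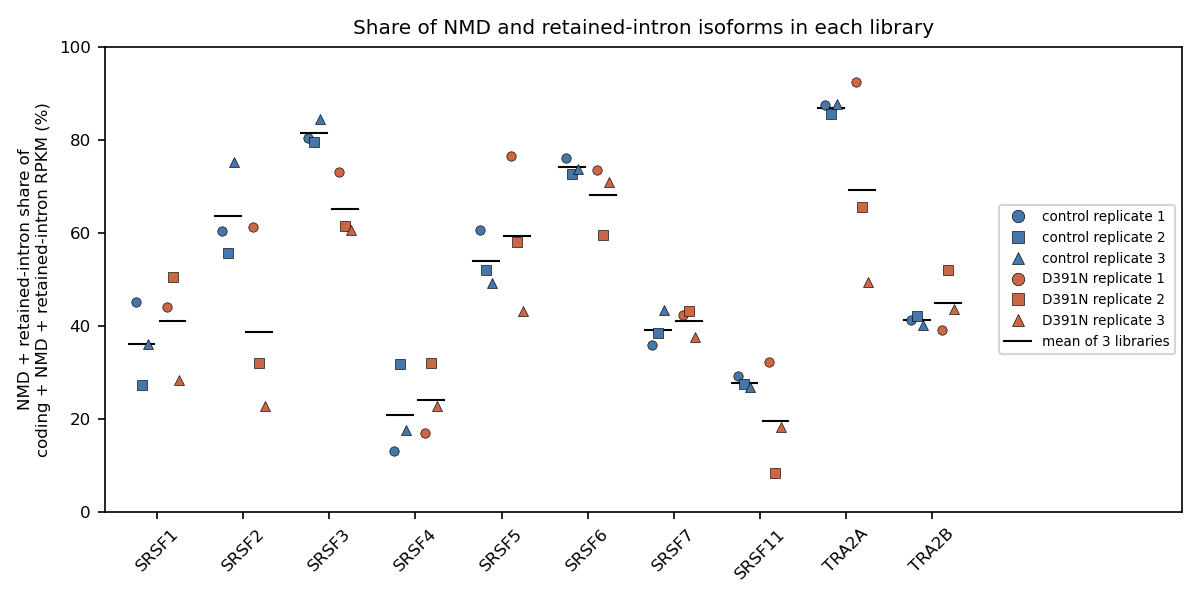
Share of NMD and retained-intron RPKM, in percent of coding, NMD and retained-intron RPKM, for each gene and library. Points are libraries, marked by condition and replicate, and black lines are means of 3 libraries. In SRSF3 the 3 D391N libraries, at 60.7% to 73.0%, sit below the controls, at 79.6% to 84.5%, while in SRSF2, SRSF11 and TRA2A D391N replicate 1 sits among or above the controls and replicates 2 and 3 below them.

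In SRSF3 the balance lay further toward coding mRNA in every D391N library than in any control. Its noncoding share was 73.0%, 61.4% and 60.7% in D391N and 80.4%, 79.6% and 84.5% in control libraries, a log2 ratio change of -1.24 ± 0.34 SE with a limma adjusted p of 0.195. The lower values lay in NMD transcripts, which summed to 259, 206 and 237 RPKM against 437, 423 and 386 RPKM (log2 fold change -0.83 ± 0.17 SE, adjusted p = 0.0821). Coding transcripts of SRSF3 were at 111, 145 and 182 RPKM against 118, 120 and 77.2 RPKM (0.47 ± 0.26 SE, adjusted p = 0.304), and here the conditions overlapped, as they did for the leading coding transcript SRSF3-208 at 97.7, 136 and 168 RPKM against 102, 105 and 68.7 RPKM. Nearly all of the NMD sum was SRSF3-204, at 258, 206 and 235 RPKM in D391N and 436, 421 and 383 RPKM in controls, from 1313 to 5508 reads (-0.83 ± 0.25 SE, adjusted p = 0.196). Its ratio of means was 0.564. Without D391N replicate 1 the NMD sum differed by -0.91 (adjusted p = 0.0243) and the ratio by -1.50 (adjusted p = 0.0376), and both had the same direction whichever library was left out.

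The SRSF3 transcripts that carry the long 456-nt exon were scarcer. SRSF3-203 averaged 1.04 RPKM in D391N and 1.89 RPKM in control libraries, and most of the RPKM with that whole exon was SRSF3-207, a retained-intron transcript, at means of 20.2 and 21.8 RPKM (23.5, 8.78 and 28.2 RPKM in D391N and 28.3, 21.3 and 15.9 RPKM in controls). Inclusion of an exon was taken as the RPKM of transcripts that hold it, in percent of these and the transcripts that skip it. For the 456-nt exon it was 18.0%, 6.19% and 14.0% in D391N and 20.2%, 15.7% and 19.8% in controls, and the conditions overlapped (two-sided exact permutation p = 0.2, unadjusted, 1 of 10 exons so tested). The 98-nt exon, held by SRSF3-204 alone, stood at 69.8%, 58.6% and 56.2% against 78.6%, 77.7% and 82.6%. Here every D391N library was below every control, at the smallest p that 3 libraries against 3 allow (exact p = 0.10), with a log2 ratio change of -1.29. Of the 50-base windows of SRSF3-204, 4.21% occurred in another gene, all of them in processed pseudogenes of SRSF3, and 28.0% occurred in no other SRSF3 transcript.

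SRSF11, an SR-like protein of nuclear speckles, also had a poison exon that was lower in every D391N library, but its main poison-exon transcript is outside the NMD class. SRSF11-208, annotated without a coding sequence, holds the 117-nt exon in which SRSF11-212 has its stop. It was at 39.8, 28.4 and 49.1 RPKM in D391N and 86.3, 84.2 and 123 RPKM in control libraries (log2 fold change -1.33 ± 0.30 SE, limma adjusted p = 0.139), and every D391N library was under the lowest control. Inclusion of the 117-nt exon was 50.3%, 22.5% and 38.2% against 59.4%, 59.6% and 65.8%, again without overlap and at the smallest possible p (log2 ratio change -1.50, exact p = 0.10). Transcripts that skip it summed to 73.4, 142 and 121 RPKM in D391N and 81.4, 76.2 and 78.7 RPKM in controls, so replicate 1 was low where replicates 2 and 3 were high. SRSF11-204, the leading coding transcript, was at 48.3, 94.4 and 69.3 RPKM in D391N and 57.1, 51.1 and 62.0 RPKM in controls, with overlap, and the retained-intron transcript SRSF11-214 at 33.4, 12.3 and 24.8 RPKM against 31.8, 27.3 and 26.6 RPKM. The coding transcript SRSF11-201 was at 16.5, 32.1 and 32.2 RPKM against 15.1, 15.8 and 11.0 RPKM (0.90 ± 0.34 SE, adjusted p = 0.253). The neighbouring 109-nt exon, with the stop of SRSF11-213, overlapped between conditions at 33.3%, 10.5% and 21.6% against 30.5%, 30.2% and 28.4% (exact p = 0.4). Most of the RPKM counted as holding it was the retained-intron transcript SRSF11-214. The 3 NMD transcripts of SRSF11 summed to 0.71 to 1.27 RPKM in D391N and 1.23 to 1.95 RPKM in controls, so the NMD class held little of this gene's level.

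**Figure D3:**
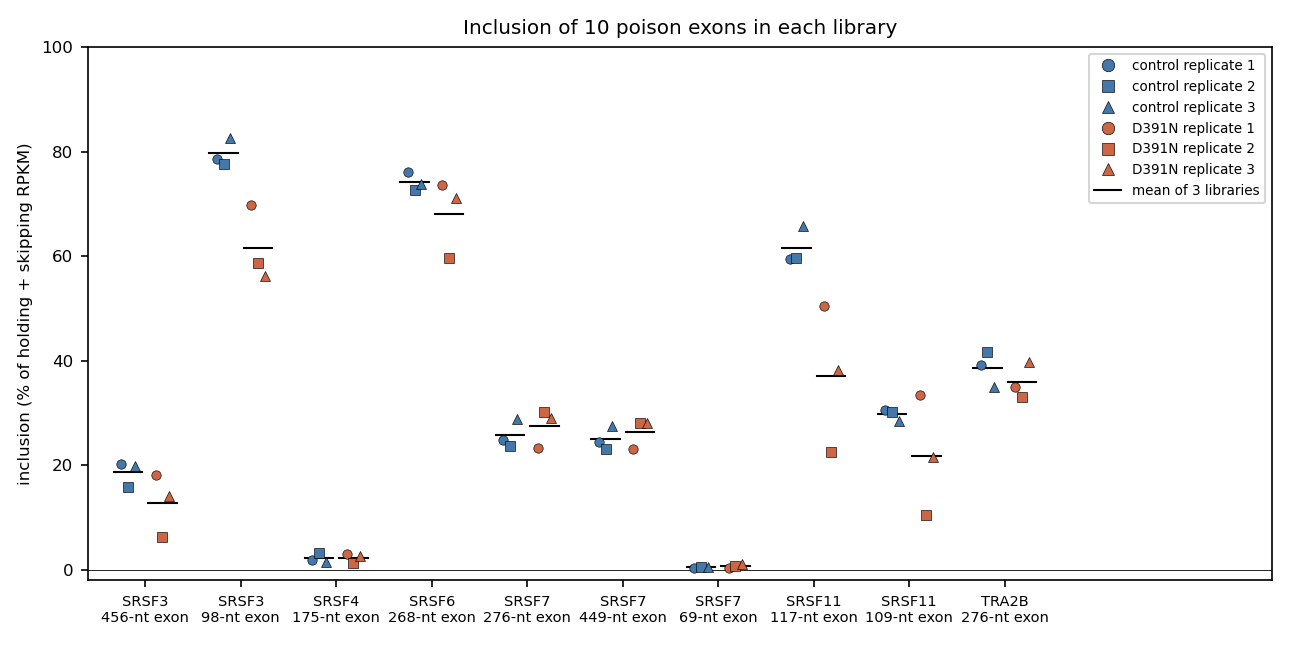
Inclusion of the 10 poison exons, as the RPKM of transcripts holding the exon in percent of holding and skipping transcripts, per library. Points are libraries, marked by condition and replicate, and black lines are means of 3 libraries. In the SRSF3 98-nt exon and the SRSF11 117-nt exon the D391N libraries lie below the controls without overlap (2 of 10, background 11.5%), and the SRSF4 175-nt and SRSF7 69-nt exons stay at 3.25% or less.

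For the other poison exons the conditions overlapped in inclusion. Over all genes, 2272 poison exons had transcripts that hold and that skip them and a mean of at least 1 RPKM between these, and of them 11.5% were lower and 9.55% higher in D391N without overlap, against 2 and 0 of the 10. In SRSF6, whose protein shares a paired RNA-binding arrangement with SRSF4 and SRSF5, the 268-nt exon was included at 73.6%, 59.6% and 71.0% in D391N and 76.2%, 72.7% and 73.8% in controls (exact p = 0.2). SRSF6 has only the coding transcript SRSF6-201 and the NMD transcript SRSF6-202 in the table, so these levels depend on few choices. SRSF6-201 was at 44.8, 54.9 and 51.6 RPKM in D391N and 37.3, 39.3 and 33.3 RPKM in controls, higher in every D391N library (log2 fold change of the coding sum 0.46 ± 0.17 SE, adjusted p = 0.166). SRSF6-202 was at 125, 81.2 and 127 RPKM against 119, 104 and 93.7 RPKM, with overlap (0.048 ± 0.28 SE). In TRA2B the 276-nt exon stood at 35.0%, 32.9% and 39.7% against 39.1%, 41.6% and 35.0% (exact p = 0.4). The NMD transcript TRA2B-205 gave only part of the RPKM holding it, at means of 28.7 RPKM in D391N and 23.2 RPKM in controls. The retained-intron transcripts TRA2B-211 (15.4 and 10.6 RPKM) and TRA2B-213 (10.4 and 9.99 RPKM) hold it too. In SRSF7, an export adaptor with a zinc knuckle, the 449-nt exon stood at 23.0%, 28.1% and 28.0% against 24.4%, 23.1% and 27.5% (exact p = 0.6), and the 276-nt exon nested in it at 23.3%, 30.1% and 29.0% against 24.7%, 23.7% and 28.9% (exact p = 0.7). Most of the RPKM counted as holding these exons was the NMD transcript SRSF7-208, so these percentages are mostly not inclusion of the exons themselves. SRSF7-208 holds them within a 1127-nt exon that overlaps coding exons in part, and its stop differs from that of SRSF7-204. It was at 21.6, 17.9 and 27.0 RPKM in D391N and 26.8, 25.2 and 22.4 RPKM in controls. SRSF7-204, which has the 449-nt exon itself, averaged 2.82 RPKM in D391N and 1.54 RPKM in controls. The low exons of SRSF4 and SRSF7 were held by transcripts near 1 RPKM. These are the SRSF4 175-nt exon at 1.18% to 3.00% against 1.48% to 3.25% and the SRSF7 69-nt exon at 0.348% to 1.01% against 0.293% to 0.473%.

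In TRA2A the D391N libraries differed among themselves in the balance of coding, NMD and retained-intron isoforms. Transcripts without a defined coding sequence, outside this balance, averaged 56.0 of 90.7 RPKM of TRA2A in D391N and 23.3 of 60.9 RPKM in controls. Its noncoding share was 92.5%, 65.5% and 49.4% in D391N and 87.5%, 85.5% and 87.7% in controls, a log2 ratio change of -1.22 ± 0.79 SE (limma adjusted p = 0.468). Replicate 1 was above all controls and replicates 2 and 3 below them, and without replicate 1 the change was -2.27 (adjusted p = 0.0241). The NMD transcript TRA2A-211 was at 23.8, 7.80 and 12.4 RPKM against 23.0, 21.0 and 14.9 RPKM. The coding transcript TRA2A-201 was at 0.61, 2.78 and 17.7 RPKM against 2.99, 3.85 and 1.74 RPKM, so replicate 3 alone was above the controls. The retained-intron transcript TRA2A-209 was lower in every D391N library, at 6.75, 5.29 and 6.25 RPKM against 8.59, 7.14 and 8.50 RPKM (log2 fold change -0.40 ± 0.23 SE, adjusted p = 0.402).

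The higher totals of TRA2A and TRA2B in D391N cells came with higher sums of transcripts without a defined coding sequence. Those of TRA2A summed to 29.8, 75.8 and 62.5 RPKM in D391N and 18.3, 23.7 and 27.9 RPKM in controls. Those of TRA2B summed to 3.88, 42.4 and 30.6 RPKM against 2.16, 1.94 and 0.82 RPKM. The other classes of TRA2B were also higher in D391N on average, with overlap. Their means were 98.0 against 88.9 RPKM (coding), 28.7 against 23.2 RPKM (NMD) and 49.5 against 39.3 RPKM (retained intron). TRA2A-208 was at 6.29, 33.9 and 22.4 RPKM in D391N and 0.20, 0.53 and 1.39 RPKM in controls (log2 fold change 4.69 ± 0.79 SE, adjusted p = 0.0935), with under 3 reads in each control. With the controls set to the level of 3 reads, the ratio of the means was 15.5. TRA2B-207 was at 2.56, 42.1 and 30.4 RPKM against 1.70, 1.75 and 0.57 RPKM (3.53 ± 1.06 SE, adjusted p = 0.194), and the same ratio was 4.25. Its value in D391N replicate 1 rested on under 1 equivalent read, as did those of the controls, so these libraries could not be told apart by these estimates. With every value under 3 equivalent reads at that level, the TRA2B-207 difference was 2.16 (adjusted p = 0.103). The retained-intron transcript TRA2B-215 was at 4.11, 9.98 and 4.08 RPKM against 1.22, 0.57 and 1.18 RPKM (2.43 ± 0.47 SE, adjusted p = 0.114), with a ratio of 2.13. In TRA2A-208 and TRA2B-215 every D391N library also lay above the level of 3 reads in every control. Without D391N replicate 1, TRA2A-208 and TRA2B-207 had adjusted p-values of 0.0138 and 0.00989, TRA2B-215 one of 0.0370 and the TRA2A gene sum one of 0.0293 (1 of 10 gene sums, background 10.9%).

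The leading coding, NMD and retained-intron transcripts of TRA2B overlapped between the conditions. TRA2B-202, the leading coding transcript, was at 81.3, 49.8 and 64.0 RPKM in D391N and 67.3, 54.8 and 57.9 RPKM in controls, and the NMD transcript TRA2B-205 at 31.6, 16.4 and 38.0 RPKM against 26.9, 29.9 and 12.8 RPKM. The conditions overlapped for both. TRA2B-211, the leading retained-intron transcript, was at 8.59, 21.8 and 15.9 RPKM against 12.0, 7.41 and 12.4 RPKM, also with overlap. The noncoding share of TRA2B was 39.1%, 52.0% and 43.7% against 41.2%, 42.2% and 40.3%.

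SRSF5, an SR protein that takes part in alternative exon choice, had coding transcripts on both sides of the comparison. Its total was 293, 202 and 262 RPKM in D391N and 221, 209 and 214 RPKM in controls. SRSF5-202, a coding transcript of 613 nt, was at 9.29, 31.0 and 45.6 RPKM in D391N and 2.16, 0.96 and 1.46 RPKM in controls (log2 fold change 3.94 ± 0.62 SE), and its adjusted p of 0.0870 was the smallest of the members. By the posterior variance, each control had under 1 equivalent read for it and D391N replicate 1 had 2.35. All of its windows occur in other coding transcripts of SRSF5. The level of 3 equivalent reads averaged 7.58 RPKM over the controls. With every value under 3 equivalent reads at that level, the difference was 1.77 (adjusted p = 0.151) and the ratio of the means 3.87. SRSF5-204 and SRSF5-205, also coding, were lower in every D391N library. SRSF5-204 was at 6.49, 29.5 and 26.9 RPKM against 31.3, 39.3 and 42.4 RPKM (-1.11 ± 0.58 SE, adjusted p = 0.363). Its value in D391N replicate 1 rested on 0.817 equivalent reads, and with that value at the level of 3 the difference was -0.65 (limma adjusted p = 0.347). SRSF5-205 was at 0.90, 0.86 and 1.19 RPKM against 1.63, 1.34 and 3.86 RPKM (-0.998 ± 0.46 SE, adjusted p = 0.315). As a class, coding transcripts of SRSF5 overlapped, at 67.0, 84.2 and 149 RPKM against 84.8, 98.8 and 104 RPKM.

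The NMD transcript SRSF5-211, with the extended exon described above, was at 14.1, 40.9 and 29.3 RPKM in D391N and 14.7, 14.2 and 10.1 RPKM in controls (log2 fold change 0.997 ± 0.42 SE, adjusted p = 0.287). D391N replicate 1 was within the control range, and without it the difference was 1.43 (adjusted p = 0.0379). The retained-intron transcript SRSF5-213 was at 176, 16.6 and 29.6 RPKM against 84.8, 62.3 and 60.0 RPKM, so replicate 1 was above and the other D391N libraries below every control. Without replicate 1 it differed by -1.61 (adjusted p = 0.0389), and with it by -0.62. SRSF5-209, the leading coding transcript, was at 47.8, 20.5 and 73.1 RPKM against 47.2, 54.5 and 54.5 RPKM.

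In SRSF1 and SRSF2, which activate splicing from exonic enhancers, D391N replicate 1 stood apart from the other D391N libraries. SRSF1-203, a 438-nt transcript with no defined coding sequence, was at 173, 8.04 and 3.47 RPKM in D391N and 99.6, 104 and 111 RPKM in controls. SRSF1-204, an NMD transcript, was at 0.46, 44.5 and 15.9 RPKM against 0.14, 0.19 and 0.48 RPKM. Both put replicate 1 on the side of the controls or beyond it. With all 6 libraries SRSF1-203 differed by -2.61 ± 1.32 SE on the log2 scale (limma adjusted p = 0.347). Without replicate 1 it differed by -4.28 (adjusted p = 0.00661), with 2.75 and 4.35 reads in D391N replicates 2 and 3 and 404 to 558 in the controls. SRSF1-204 had under 1 read in D391N replicate 1 and in each control, and 181 and 26.0 reads in D391N replicates 2 and 3. With all 6 libraries SRSF1-204 differed by 4.43 ± 1.52 SE (limma adjusted p = 0.225). With every value under 3 reads at the level of 3 reads, the difference was 3.06 (adjusted p = 0.161). The mean of all D391N libraries was 12.4 times that of controls set to that level, and the mean of replicates 2 and 3 was 18.5 times it. Without replicate 1 the adjusted p of SRSF1-204 was 0.00769. The transcript of ENSG00000266086 that contains the whole of SRSF1-204 was at 10.8, 52.1 and 5.62 RPKM in D391N and 20.8, 28.0 and 72.5 RPKM in controls. The sum of both genes was 379, 275 and 235 RPKM against 321, 351 and 331 RPKM. The leading coding transcript SRSF1-205 was steadier, at 91.0, 94.9 and 135 RPKM against 94.5, 101 and 64.8 RPKM (0.31 ± 0.30 SE, adjusted p = 0.612). SRSF1-206, the leading NMD transcript, was at 51.4, 61.6 and 23.0 RPKM against 28.8, 13.8 and 20.8 RPKM (1.04 ± 0.46 SE, adjusted p = 0.297). Its controls rested on 11.7, 1.77 and 5.15 equivalent reads, and 84.6% of its windows also lie in ENSG00000266086. With every value under 3 equivalent reads at that level, its difference was 0.84. SRSF1-202, the sole retained-intron transcript, was at 1.84 to 3.60 RPKM against 2.98 to 3.53 RPKM.

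In SRSF2 the share of noncoding transcripts was 61.2%, 32.1% and 22.7% in D391N and 60.3%, 55.6% and 75.2% in controls, a log2 ratio change of -1.57 ± 0.62 SE (limma adjusted p = 0.285). Replicate 1 was within the control range, and without it the change was -2.26 (adjusted p = 0.0357). Most of the noncoding level was retained intron, at 45.1, 19.9 and 16.7 RPKM against 48.4, 50.2 and 45.1 RPKM. Replicate 1 was just below the lowest control, so the conditions did not overlap, and the difference was -0.96 ± 0.35 SE (adjusted p = 0.173), or -1.39 without replicate 1 (adjusted p = 0.0112). SRSF2-206 was lower in every D391N library, at 8.19, 8.64 and 5.85 RPKM against 11.5, 13.7 and 11.1 RPKM (-0.69 ± 0.26 SE, adjusted p = 0.248). SRSF2-210 was at 31.4, 0.45 and 9.91 RPKM against 22.7, 20.1 and 21.4 RPKM (-1.95 ± 1.35 SE). Its value in D391N replicate 2 rested on 0.021 equivalent reads, and the level of 3 equivalent reads there was 2.70 RPKM. With that value at that level the difference was -1.16. The NMD transcript SRSF2-204 went from 0.22 to 6.47 RPKM in D391N and from 0.69 to 11.7 RPKM in controls. It rested on 0.063 and 0.35 equivalent reads in D391N replicates 2 and 3 and on 0.18 in control replicate 2. The coding transcript SRSF2-203 was at 15.5, 22.6 and 30.0 RPKM against 16.0, 19.8 and 10.8 RPKM. The stop codon of SRSF2-204 is in an exon that the coding transcripts share, with 209 nt from the stop to the last junction, so the junctions that make it an NMD transcript come after the usual stop.

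In SRSF4 and SRSF7 the leading transcript of each class overlapped between the conditions. SRSF4-202, the leading coding transcript of SRSF4, was at 23.8, 57.3 and 28.9 RPKM in D391N and 14.7, 14.5 and 30.0 RPKM in controls (log2 fold change 0.87 ± 0.44 SE, adjusted p = 0.349). The retained-intron transcript SRSF4-203, of 206 nt, was at 2.95, 2.77 and 3.19 RPKM against 0.56, 1.69 and 1.06 RPKM (1.46 ± 0.42 SE, adjusted p = 0.183). Each control had under 3 equivalent reads for it. Against controls at the level of 3 equivalent reads the ratio of means was 1.03, so this difference could not be told from that level. SRSF4-204, the leading retained-intron transcript, was at 4.86, 32.6 and 11.2 RPKM against 2.95, 14.4 and 8.84 RPKM, and SRSF4-205, the NMD transcript, at 0.93 to 1.44 RPKM against 0.67 to 1.31 RPKM. In SRSF7 the leading coding transcript SRSF7-202 was at 64.0, 39.7 and 55.4 RPKM against 72.4, 62.7 and 46.3 RPKM, and the retained-intron transcript SRSF7-212 at 32.5, 13.7 and 11.1 RPKM against 17.2, 23.2 and 20.1 RPKM. The noncoding shares overlapped, for SRSF7 at 42.3%, 43.3% and 37.7% against 35.8%, 38.4% and 43.3%, and for SRSF4 at 17.0%, 32.0% and 22.8% against 13.0%, 31.8% and 17.5%.

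Across the 86 transcripts, none passed the adjusted threshold (background 0.0604%), with adjusted p-values of 0.0870 to 0.971. An unadjusted p under 0.05 was reached by 11, or 12.8%, against 17.6% of all 54671 transcripts. Of these 7 were higher in D391N (background 6.86%) and 4 lower (background 10.7%). The conditions did not overlap for 9 transcripts that were higher (background 10.1%) and 6 that were lower (background 15.6%). These shares of the members, 10.5% and 6.98%, were near or below those of all transcripts. By class, 3 coding, 3 retained-intron and 3 CDS not defined transcripts were higher without overlap, and 2 coding, 2 retained-intron, 1 NMD and 1 CDS not defined transcript were lower. When D391N replicate 1 was left out, 12 of the 86 passed (background 9.07%), 9 higher and 3 lower. They were SRSF1-203, SRSF1-204, SRSF5-202, SRSF5-211, SRSF5-212, SRSF5-213, SRSF7-210, SRSF11-201, SRSF11-203, TRA2A-208, TRA2B-207 and TRA2B-215, and leaving out any other library gave none.

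**Figure D4:**
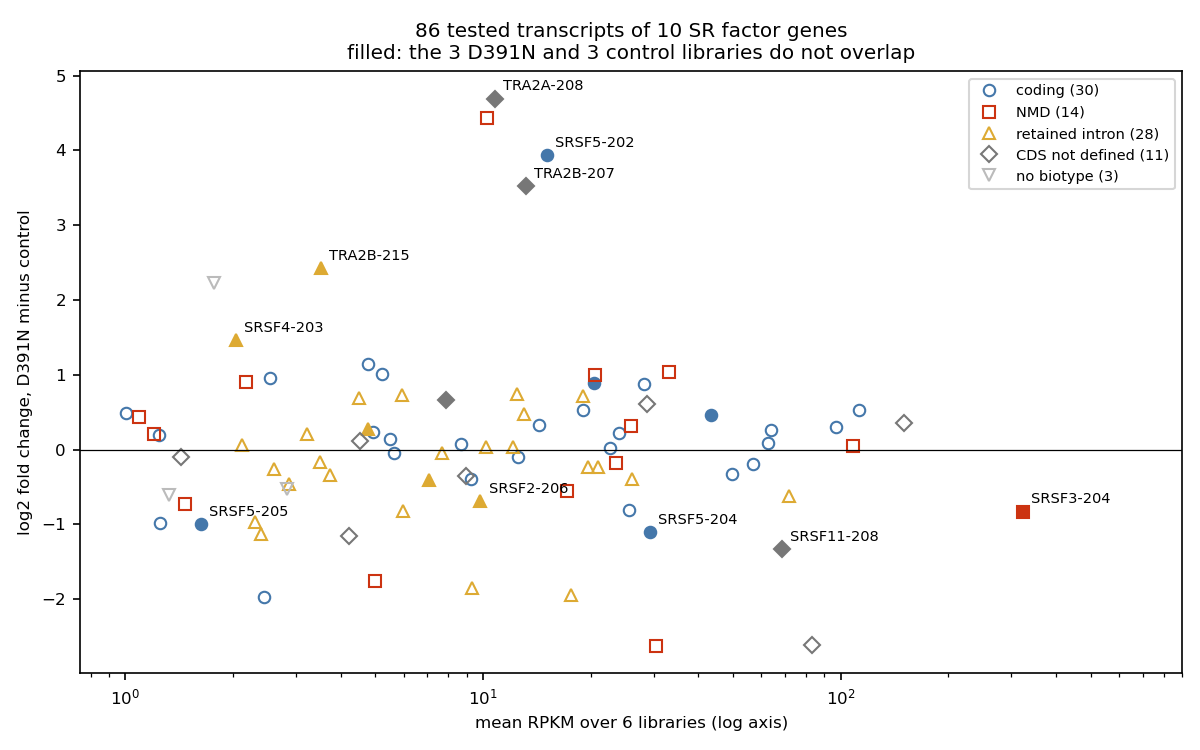
Log2 fold change (D391N minus control) of the 86 tested transcripts against their mean RPKM over 6 libraries (log axis), coloured by biotype class. Filled points are transcripts whose 3 D391N and 3 control libraries do not overlap. The named filled points run from TRA2A-208 at 4.69 to SRSF11-208 at -1.33, and SRSF3-204 is the most abundant of them.

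Other genes of the splicing-factor network were compared as gene sums. Of 21 other SR and SR-like proteins, 6 were higher and 1 lower at an unadjusted p under 0.05, with a median log2 fold change of 0.36 and none past the adjusted threshold. Over all gene sums, 6.76% were higher and 16% lower at that p. The most abundant were LUC7L3, SON and RBM39. Of 10 kinases and import factors of SR proteins, led by SRPK1, TNPO1 and PRPF4B, 3 were higher and 1 lower (median 0.12). Of 26 hnRNP and related regulators, led by HNRNPA1, HNRNPU and HNRNPA2B1, 4 were higher and 1 lower (median 0.27). The 14 NMD factors, led by RBM8A, SMG1 and CASC3, had 1 higher and 1 lower and a median of -0.0027. None of these genes passed the adjusted threshold in the sum or in the ratio of noncoding to coding levels, and the median over all gene sums was -0.090. Median centring adds 0.22 to each of these medians and to that of all genes alike.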

How the data were processed

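RNA of 3 D391N and 3 control samples was depleted of rRNA and sequenced as 50-base single reads. The authors removed adapters (cutadapt), mapped reads to GRCh38 Ensembl transcripts (Segemehl) and ran BitSeq, which shares reads among the transcripts they match. What they deposited for each transcript and library is a natural log RPKM, as a posterior mean, with the variance of that estimate. Levels of overlapping isoforms therefore depend on each other. The deposited variance, which is that of the natural log RPKM, served only to estimate the equivalent reads behind a value. It also holds the uncertainty of sharing reads among isoforms. Intervals for counting error were not computed, since read totals were not used here.

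Natural log values were exponentiated, summed by gene or by gene and biotype, and tested as log2(RPKM + 0.1) with limma 3.58.1 (empirical Bayes with trend, R 4.3.3) over all features with a mean of at least 1 RPKM, with Benjamini-Hochberg adjustment over all of them. Other steps used Python 3.11.15, pandas 2.3.3, numpy 2.4.6, scipy 1.17.1 and matplotlib 3.10.9, and the fits were tested on simulated data. Biotypes, exons and sequences came from GENCODE v44 mapped to GRCh37, matched by Ensembl identifier (symbols for 88.2% of genes, biotypes for 90.2% of transcripts), and coordinates are GRCh37, not the build of the files. Transcripts named are the most abundant coding, NMD and retained-intron transcript of each gene and the 5 largest differences in each direction without overlap. SRSF1-203, SRSF1-204, SRSF3-203, SRSF11-201 and the transcripts called without D391N replicate 1 were named after their values were seen. The members and gene lists were chosen with earlier results of these data known, and the poison-exon sums were added after seeing the data, with two-sided exact permutation tests on 10 exons. Whether replicate numbers pair the libraries is not stated, and the main fits treat them as unpaired. Deviations of same-numbered libraries from their group means correlated at 0.087, 0.055 and -0.11, which cannot settle whether they were paired. The methods of the study describe 3 barcoded libraries run in 1 lane and do not say which, so an effect of lane was not tested. The sequence of 1 stop region is not reported here.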

Additional observations from a re-analysis of the deposited data

How the results depend on the processing

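Calls on the members were 0 in transcripts, gene sums, class sums and ratios under every pseudocount, filter, scaling and trend setting tried, and under the replicate block, which gave 0 calls in each with 9, 1, 5 and 2 unadjusted p-values under 0.05. The exception was leaving out 1 library: over the 6 libraries the calls ranged from 0 to 12 (transcripts), 0 to 1 (gene sums), 0 to 4 (class sums) and 0 to 3 (ratios), and every call came without D391N replicate 1. The cause was not tested. Of the other settings, 14 values changed sign and 887 did not, and of those with 1 library left out 40 changed sign. Counts over all 54671 transcripts moved more, from 33 to 4961 without D391N replicate 1 and to 7 with the replicate block. Under median centring the gene sums of SRSF7 and SRSF1 turned to 0.10 and 0.082, the SRSF5 coding sum to 0.081 and the SRSF7 NMD sum to 0.073. Under quantile normalization the gene sums of SRSF3 and SRSF1 turned to 0.015 and 0.065, the class sums to -0.033 (SRSF5 retained intron), -0.088 (SRSF6 NMD), -0.071 (SRSF1 coding) and -0.022 (TRA2B coding) and the SRSF7 ratio to -0.020. With NMD transcripts alone the SRSF4 ratio was -0.052, with retained introns alone the SRSF1 ratio was -0.52, and with transcripts without a coding sequence added it was -0.50. With 1 library left out, sums that changed sign ranged from -0.14 to 0.28 (SRSF1 coding), -0.70 to 0.016 (SRSF11 retained intron and SRSF11-214), -0.40 to 0.036 (SRSF3 retained intron), -0.35 to 0.23 (SRSF5 coding), -0.32 to 0.39 (SRSF5 retained intron), -0.062 to 0.26 (SRSF6 NMD and SRSF6-202), -0.18 to 0.080 (SRSF7 NMD), -0.34 to 0.042 (SRSF7 coding), -0.53 to 0.099 (SRSF7 retained intron), -0.066 to 1.39 (TRA2A coding), -0.069 to 0.67 (TRA2B NMD and TRA2B-205), -0.0069 to 0.34 (TRA2B coding), -0.099 to 0.19 (SRSF11 gene) and -0.25 to 0.062 (SRSF7 gene). Ratios ranged from -0.0015 to 0.68 (SRSF1), -0.041 to 0.77 (SRSF4) and -0.20 to 0.85 (SRSF5), and transcripts from -0.56 to 0.28 (SRSF3-207), -0.73 to 0.19 (SRSF5-209), -1.61 to 0.082 (SRSF5-213), -0.37 to 0.0022 (SRSF7-202), -0.69 to 0.078 (SRSF7-212), -0.98 to 1.34 (TRA2A-201) and -0.083 to 0.27 (TRA2B-202). Inclusion kept its sign for 9 of the 10 poison exons with each library left out, at -1.55 to -1.12 for the SRSF3 98-nt exon and -1.92 to -1.02 for the SRSF11 117-nt exon.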
